A study of Homo sapiens with 6 samples.

Results

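The genes described here encode enzymes and regulators of cholesterol and fatty acid synthesis, many of them known targets of the sterol regulatory element-binding proteins (SREBPs). They were taken as a named list of 35 genes, chosen with earlier results of these data known. All of them were found among the 58096 genes of the count files. The list holds 18 enzymes of sterol synthesis, 5 genes for SREBPs and the proteins that escort or retain them, 3 genes of sterol transport and 9 enzymes of fatty acid synthesis. Total RNA had been sequenced from ALL-SIL, an established human T-cell acute lymphoblastic leukaemia line, in 3 libraries titled JQ1 and 3 titled DMSO. JQ1 is a drug-like compound that competes with acetylated chromatin for the bromodomains of BET proteins, and was given at 1 µM for 24 h. DMSO is its solvent. Both groups were grown in medium with 20% fetal bovine serum. The treatment text of the DMSO samples also repeats the JQ1 dose and time, so the groups rest on the sample titles. Separate cultures are not mentioned for the replicates, and a p-value here measures library spread that may be only technical.

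Cholesterol is built from acetyl-CoA through mevalonate, farnesyl diphosphate, squalene and lanosterol, and fatty acids from acetyl-CoA through malonyl-CoA. SREBPs are made as membrane-bound precursors in the endoplasmic reticulum. SCAP escorts them to the Golgi for cleavage when sterols are scarce, and the INSIG proteins hold them back when sterols are plentiful. SREBP-2, from SREBF2, is known mainly for sterol genes and SREBP-1, from SREBF1, mainly for fatty acid genes, and growing T cells use both arms to build membranes.

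The promoters of the 4 genes called changed by treatment, TM7SF2, LSS, MVD and ELOVL6, are given because sterol genes are known to be controlled by SREBPs together with NF-Y, a factor that binds CCAAT. Each sequence is the 250 bases before the RefSeq transcript start (GRCh38.p14), 5′ to 3′ on the strand of the gene, and capitals mark CCAAT or its reverse complement ATTGG.
TM7SF2, chr11:65111622-65111871, plus strand: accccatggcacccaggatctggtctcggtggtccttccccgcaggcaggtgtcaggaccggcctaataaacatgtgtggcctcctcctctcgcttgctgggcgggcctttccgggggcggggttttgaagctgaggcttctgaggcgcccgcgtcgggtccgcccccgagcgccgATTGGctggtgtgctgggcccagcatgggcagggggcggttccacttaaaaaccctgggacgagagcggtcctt
LSS, chr21:46228775-46229024, minus strand: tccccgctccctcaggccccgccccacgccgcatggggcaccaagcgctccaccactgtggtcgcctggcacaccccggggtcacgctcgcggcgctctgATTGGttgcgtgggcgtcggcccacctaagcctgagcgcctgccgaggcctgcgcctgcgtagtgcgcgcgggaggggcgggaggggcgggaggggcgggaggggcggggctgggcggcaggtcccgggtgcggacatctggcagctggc
MVD, chr16:88663092-88663341, minus strand: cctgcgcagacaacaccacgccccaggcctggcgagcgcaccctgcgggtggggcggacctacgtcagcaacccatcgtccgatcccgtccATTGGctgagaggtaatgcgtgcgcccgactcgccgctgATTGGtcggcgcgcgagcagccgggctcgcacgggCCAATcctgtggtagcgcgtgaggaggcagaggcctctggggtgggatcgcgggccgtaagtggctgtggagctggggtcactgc
ELOVL6, chr4:110198616-110198865, minus strand: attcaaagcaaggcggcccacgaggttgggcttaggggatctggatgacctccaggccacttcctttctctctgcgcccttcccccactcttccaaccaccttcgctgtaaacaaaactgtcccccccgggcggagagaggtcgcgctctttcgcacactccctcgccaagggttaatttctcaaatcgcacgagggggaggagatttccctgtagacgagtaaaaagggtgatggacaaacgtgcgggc
The motif stood 1 time in the sequences of TM7SF2 and LSS and 3 times in that of MVD, and was not found in that of ELOVL6. The ELOVL6 sequence lies wholly inside the annotated gene, which runs from 110045846 to 110199199 on the minus strand. Those of TM7SF2, LSS and MVD reach past the annotated 5′ end of their genes. Bases before the annotated 5′ end of ELOVL6 were not searched, so its lack of the motif holds for this RefSeq start only.

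Promoter windows of 300 bases (250 before and 50 after the start) were at hand for 30 of the 35 members, and those of ACAT2, FDFT1, SQLE, ABCG1 and FASN were not analysed here. A gene was counted when any of its windows held a motif on either strand. CCAAT was in 22 of 30 members, 13 of 15 in sterol synthesis and 6 of 8 in fatty acid synthesis. It was in 39.7% of the 27305 genes with a promoter window. These 27305 genes include many that were not tested for a change, so their shares are not those of expressed genes. The sterol regulatory element, searched as TCACNCCAC, was in 1 member, SREBF2, and in 1.39% of all genes. Only this form was searched, with N as any base, so a gene without a match may hold another form of the element. The E-box CACGTG was in 6 members (LSS, SC5D, INSIG1, SCAP, ABCA1 and ELOVL5) and in 8.77% of all genes. The GC box GGGCGG was in 28 members and in 48.3% of all genes. Matches of different motifs were counted separately, also where they overlapped. A match is a stretch of letters and not a measured binding site.

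The libraries held 15925885 to 25293884 gene counts on the sense strand. Levels are in CPM, a gene's count divided by its library's size after TMM scaling, per 1e6 counts. Changes are JQ1 over DMSO on the log2 scale, each with its standard error (SE), from edgeR's quasi-likelihood test. A gene was called when its Benjamini-Hochberg adjusted p over the 13975 genes tested was under 0.05. The 8 T-lineage markers summed to 1042 to 1322 CPM in JQ1 libraries and 1639 to 1849 CPM in DMSO libraries, with 6 of 8 called lower and 1 higher. Markers of myeloid cells and hepatocytes summed to under 1 CPM in each library, and the 5 adipocyte markers had 0 counts. Of 5 B-lineage markers MS4A1 and CD22 were at or near 0, and the list summed to 1.48 to 6.14 CPM in JQ1 libraries and 11.3 to 24.0 CPM in DMSO libraries mainly through CD79A and CD79B. Of 5 fibroblast markers 3 had 0 counts, and the list summed to 2.51 to 3.33 CPM in JQ1 libraries and 7.83 to 10.6 CPM in DMSO libraries, nearly all from PDGFRB. The part of these markers in the results was not tested, and in bulk RNA fewer cells of a type and less RNA per cell cannot be told apart. Of genes known to respond to BET inhibitors, MYC averaged 135 ± 14.8 CPM in JQ1 libraries and 358 ± 12.1 CPM in DMSO libraries (SD, n = 3 each) and HEXIM1 averaged 89.3 ± 19.2 CPM in JQ1 libraries and 29.8 ± 7.17 CPM in DMSO libraries (SD, n = 3 each).

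Of the 35 lipid synthesis genes 32 passed the filter on low counts, and of these 3 rose and 1 fell. The risers were TM7SF2, LSS and MVD, all enzymes of sterol synthesis. The gene that fell was ELOVL6, an elongase of saturated fatty acids. Across all tested genes 15.9% rose and 20.6% fell, 36.6% in either direction. The JQ1 and DMSO libraries did not overlap for 6 of 32 members, where 48.9% of all tested genes did not overlap. Libraries of the same replicate number moved together across the table. With that number in the model as a block, 11 members were called higher and 5 lower, where 27.3% and 29.6% of all tested genes were called, 56.9% in either direction. The median log2 change over the 32 members was 0.03, beside 0.00 over all tested genes.

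**Figure D1:**
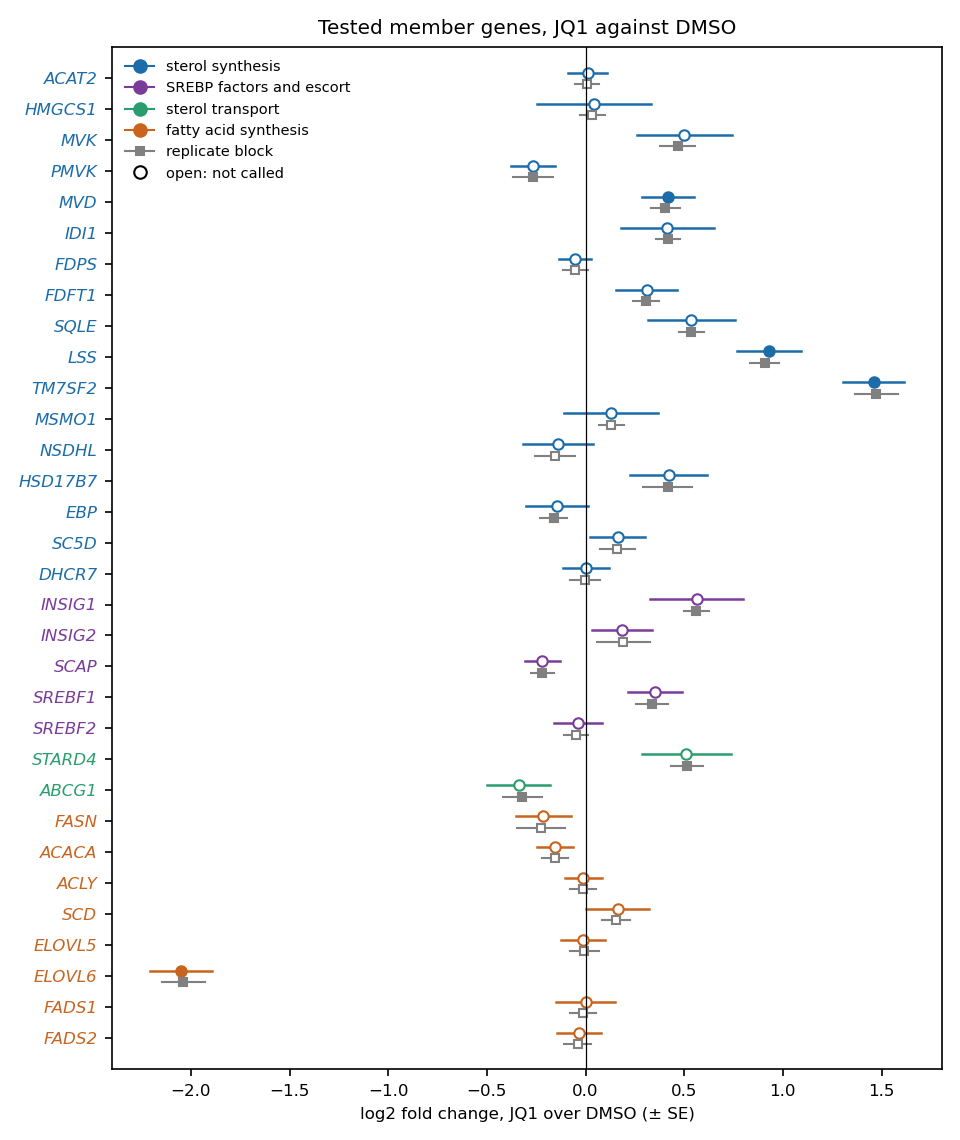
Log2 fold change of JQ1 over DMSO (x axis, log2 units) for the 32 tested members (y axis), with bars of 1 SE; circles are the test by group alone, coloured by arm, grey squares the fit with replicate number as a block, and filled symbols were called. ELOVL6 stands at -2.05 and TM7SF2 at 1.46, and 11 members were called higher and 5 lower with the block, against 3 and 1 without it.

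TM7SF2, a sterol reductase that acts after lanosterol, was the member that rose most. TM7SF2 had 30.6, 31.6 and 29.1 CPM in JQ1 replicates 1, 2 and 3, against 8.27, 11.7 and 13.1 CPM in DMSO replicates 1, 2 and 3. Every JQ1 library lay well above the highest DMSO library. The rise was 2.75-fold (log2 change 1.46 ± 0.16, edgeR adjusted p = 9.3e-05) and rested on 756, 674 and 451 reads in the JQ1 libraries and 168, 297 and 346 reads in the DMSO libraries, by replicate number. TM7SF2 lies on chromosome 11 (65111845 to 65116384, plus strand, ENSG00000149809.14). In GENCODE release 29 its exons overlap those of VPS51 on the same strand by 16 bases, and VPS51 itself fell by 0.42 ± 0.09 on the log2 scale (edgeR adjusted p = 0.0036).

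LSS closes squalene epoxide into lanosterol, the first sterol of the pathway. LSS had 269, 336 and 207 CPM in JQ1 replicates 1, 2 and 3, against 136, 159 and 132 CPM in DMSO replicates 1, 2 and 3. The groups did not overlap, although the JQ1 libraries were spread widely. The rise was 1.90-fold (log2 change 0.93 ± 0.16, edgeR adjusted p = 0.0019), on 6667, 7159 and 3208 reads in the JQ1 libraries and 2759, 4054 and 3476 reads in the DMSO libraries, by replicate number. LSS lies on chromosome 21 (46188141 to 46228824, minus strand, ENSG00000160285.14).

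MVD makes isopentenyl diphosphate, the building block of isoprenoids. MVD had 59.8, 73.7 and 49.8 CPM in JQ1 replicates 1, 2 and 3, against 44.2, 49.0 and 44.3 CPM in DMSO replicates 1, 2 and 3. The lowest JQ1 library lay just above the highest DMSO library. The rise was 1.34-fold (log2 change 0.42 ± 0.13, edgeR adjusted p = 0.030), on 1480, 1571 and 772 reads in the JQ1 libraries and 897, 1247 and 1168 reads in the DMSO libraries, by replicate number. The call was lost without JQ1 replicate 1 (edgeR adjusted p = 0.061), JQ1 replicate 2 (0.11), DMSO replicate 1 (0.091) or DMSO replicate 3 (0.084), and when libraries were scaled by their size alone (0.060). MVD lies on chromosome 16 (88651935 to 88663161, minus strand, ENSG00000167508.11).

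Of the 18 sterol synthesis enzymes 17 were tested, with 3 higher and 0 lower by group alone, and 8 higher and 2 lower with the block. Beside them stand the 15.9% and 20.6% of all tested genes by group alone and the 27.3% and 29.6% with the block. The median log2 change was 0.16, and 13 of 17 changes were positive, beside 7029 of the 13975 tested genes. The difference between the sterol and fatty acid arms was not tested. The enzymes are given along the pathway, in 3 stretches set out after the values were seen.

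Among the 7 enzymes from acetyl-CoA to farnesyl diphosphate the median change was 0.04. HMGCS1 makes HMG-CoA. HMGCS1 had 264, 249 and 142 CPM in JQ1 replicates 1, 2 and 3, against 232, 260.1 and 144 CPM in DMSO replicates 1, 2 and 3. Replicate 3 was far below the others in both groups, and the groups overlapped. The HMGCS1 change was 0.04 ± 0.29 (edgeR adjusted p = 0.93), with a 95% interval from -0.64 to 0.73, and from -0.10 to 0.17 with the block. The thiolase ACAT2 (0.01 ± 0.10) and the farnesyl diphosphate synthase FDPS (-0.05 ± 0.08) had edgeR adjusted p values of 0.95 and 0.65. FDPS is known to have processed pseudogenes, so its count is uncertain.

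MVK is the mevalonate kinase. MVK had 39.6, 41.8 and 21.7 CPM in JQ1 replicates 1, 2 and 3, against 26.2, 27.4 and 19.8 CPM in DMSO replicates 1, 2 and 3. JQ1 replicate 3 fell among the DMSO libraries. The MVK change of 0.50 ± 0.24 was not called (edgeR adjusted p = 0.14), but was called with the block (0.47, edgeR adjusted p = 5.2e-05) and without JQ1 replicate 3 (0.74, edgeR adjusted p = 0.0043). IDI1 isomerises isopentenyl diphosphate. IDI1 had 213, 219 and 139.7 CPM in JQ1 replicates 1, 2 and 3, against 161, 169 and 100.1 CPM in DMSO replicates 1, 2 and 3. The groups overlapped, yet the JQ1 library was the higher of each pair, by a log2 ratio of 0.38 to 0.48. The IDI1 change was 0.41 ± 0.23, with an edgeR adjusted p of 0.21 by group alone and 5.3e-07 with the block.

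PMVK is the kinase after MVK, and its change had the opposite sign. PMVK had 12.6, 12.9 and 12.5 CPM in JQ1 replicates 1, 2 and 3, against 15.2, 15.1 and 15.5 CPM in DMSO replicates 1, 2 and 3. The groups did not overlap and were tight. The PMVK change of -0.27 ± 0.11 was not called by group alone (edgeR adjusted p = 0.087) and was called with the block (edgeR adjusted p = 0.025). The PMVK call with the block was lost without pair 1, 2 or 3 (edgeR adjusted p = 0.085, 0.068 and 0.098).

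The 3 enzymes that make squalene and turn it into lanosterol had a median change of 0.54. In every pair 3 of 3 were higher in JQ1, as were 35.7% of all tested genes. FDFT1 is the squalene synthase. FDFT1 had 562, 668 and 466 CPM in JQ1 replicates 1, 2 and 3, against 445, 535 and 387 CPM in DMSO replicates 1, 2 and 3. SQLE is the squalene epoxidase. SQLE had 376, 363 and 237 CPM in JQ1 replicates 1, 2 and 3, against 251, 260.2 and 163 CPM in DMSO replicates 1, 2 and 3. For both genes JQ1 replicate 3 fell within the DMSO range. The FDFT1 change was 0.31 ± 0.16 (edgeR adjusted p = 0.15, and 2.0e-04 with the block). The SQLE change was 0.54 ± 0.22 (edgeR adjusted p = 0.090, 1.2e-08 with the block and 0.017 without JQ1 replicate 3, and DESeq2 adjusted p = 0.021). LSS is the last of the 3.

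After lanosterol 7 of 8 enzymes were tested, with a median change of 0.13, and TM7SF2 was the 1 called by group alone. HSD17B7 is a ketosteroid reductase. HSD17B7 had 9.50, 11.4 and 7.61 CPM in JQ1 replicates 1, 2 and 3, against 6.45, 8.72 and 6.18 CPM in DMSO replicates 1, 2 and 3. The groups overlapped, and JQ1 was higher in each pair. The HSD17B7 change was 0.42 ± 0.19 (edgeR adjusted p = 0.12, and 0.0050 with the block, or 0.052 once pair 1 was left out), and a known pseudogene copy makes its count uncertain.

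EBP is a sterol isomerase. EBP had 75.5, 64.0 and 48.0 CPM in JQ1 replicates 1, 2 and 3, against 79.2, 65.9 and 62.9 CPM in DMSO replicates 1, 2 and 3. The groups overlapped, and JQ1 was lower in each pair. The EBP change was -0.15 ± 0.16 (edgeR adjusted p = 0.50, and 0.048 with the block). The EBP call with the block rested on pair 3, whose log2 ratio was -0.39, against -0.07 and -0.04 in pairs 1 and 2. Without pair 3 the block gave -0.05 (edgeR adjusted p = 0.62), and without JQ1 replicate 3 the change by group alone was 0.01. The methyl sterol oxidase MSMO1 (0.13), the dehydrogenase NSDHL (-0.14), the desaturase SC5D (0.16) and the reductase DHCR7 (0.00) were not called by group alone or with the block.

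Of the SREBP genes and their escort and retention proteins 5 were tested and 0 were called by edgeR by group alone, with INSIG1, SREBF1 and SCAP at an unadjusted p under 0.05, and INSIG1 called by DESeq2. With the block INSIG1 and SREBF1 were higher and SCAP lower. Of all tested genes 36.6% were called in either direction by group alone and 56.9% with the block. INSIG1 retains the SREBP precursors and is itself a known SREBP target. INSIG1 had 344, 343 and 214 CPM in JQ1 replicates 1, 2 and 3, against 225, 241 and 145 CPM in DMSO replicates 1, 2 and 3. JQ1 replicate 3 lay below DMSO replicates 1 and 2, while the pairs had log2 ratios of 0.61, 0.51 and 0.56. The INSIG1 change was 0.56 ± 0.24 (edgeR adjusted p = 0.098, 4.0e-09 with the block and 0.017 without JQ1 replicate 3, and DESeq2 adjusted p = 0.020).

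SREBF1 encodes SREBP-1. SREBF1 had 61.9, 72.9 and 47.4 CPM in JQ1 replicates 1, 2 and 3, against 46.7, 49.8 and 46.6 CPM in DMSO replicates 1, 2 and 3. Replicates 1 and 2 were higher in JQ1, and the third pair was nearly level, with a log2 ratio of 0.03. The SREBF1 change was 0.35 ± 0.14 (edgeR adjusted p = 0.069, 0.0015 with the block and 0.0069 without JQ1 replicate 3). Counts per gene do not separate SREBF1 transcripts that start at different promoters.

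SREBF2 encodes SREBP-2. SREBF2 had 142, 147 and 110.0 CPM in JQ1 replicates 1, 2 and 3, against 145, 143 and 122 CPM in DMSO replicates 1, 2 and 3. The groups overlapped, and the change was -0.04 ± 0.12 (edgeR adjusted p = 0.83), with a 95% interval from -0.31 to 0.23. SCAP is the sterol sensor and escort. SCAP had 90.0, 79.2 and 88.0 CPM in JQ1 replicates 1, 2 and 3, against 106, 93.0 and 101 CPM in DMSO replicates 1, 2 and 3. These groups did not overlap. The SCAP change was -0.22 ± 0.09 (edgeR adjusted p = 0.080, and 0.0024 with the block). INSIG2, the second INSIG gene, averaged 7.40 ± 0.390 CPM in JQ1 libraries and 6.52 ± 0.678 CPM in DMSO libraries (SD, n = 3 each) and was not called by group alone or with the block.

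In sterol transport STARD4 carries cholesterol between membranes. STARD4 had 89.9, 81.2 and 56.8 CPM in JQ1 replicates 1, 2 and 3, against 52.2, 68.2 and 39.8 CPM in DMSO replicates 1, 2 and 3. The groups overlapped, and JQ1 was higher in each pair. The STARD4 change was 0.51 ± 0.23 (edgeR adjusted p = 0.12, 2.5e-05 with the block, and DESeq2 adjusted p = 0.034). STARD4 was also called when JQ1 replicate 3 (edgeR adjusted p = 0.034) or DMSO replicate 2 (0.024) was left out. ABCG1 is a sterol exporter driven by the liver X receptors (LXRs). ABCG1 had 14.2, 18.4 and 16.1 CPM in JQ1 replicates 1, 2 and 3, against 16.5, 20.1 and 24.8 CPM in DMSO replicates 1, 2 and 3. The groups overlapped, and JQ1 was lower in each pair. The ABCG1 change was -0.34 ± 0.16 (edgeR adjusted p = 0.12, and 0.0067 with the block). Once pair 3 was left out, the block gave -0.16 and no call (edgeR adjusted p = 0.23), and without DMSO replicate 3 the change by group alone was -0.17.

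**Figure D2:**
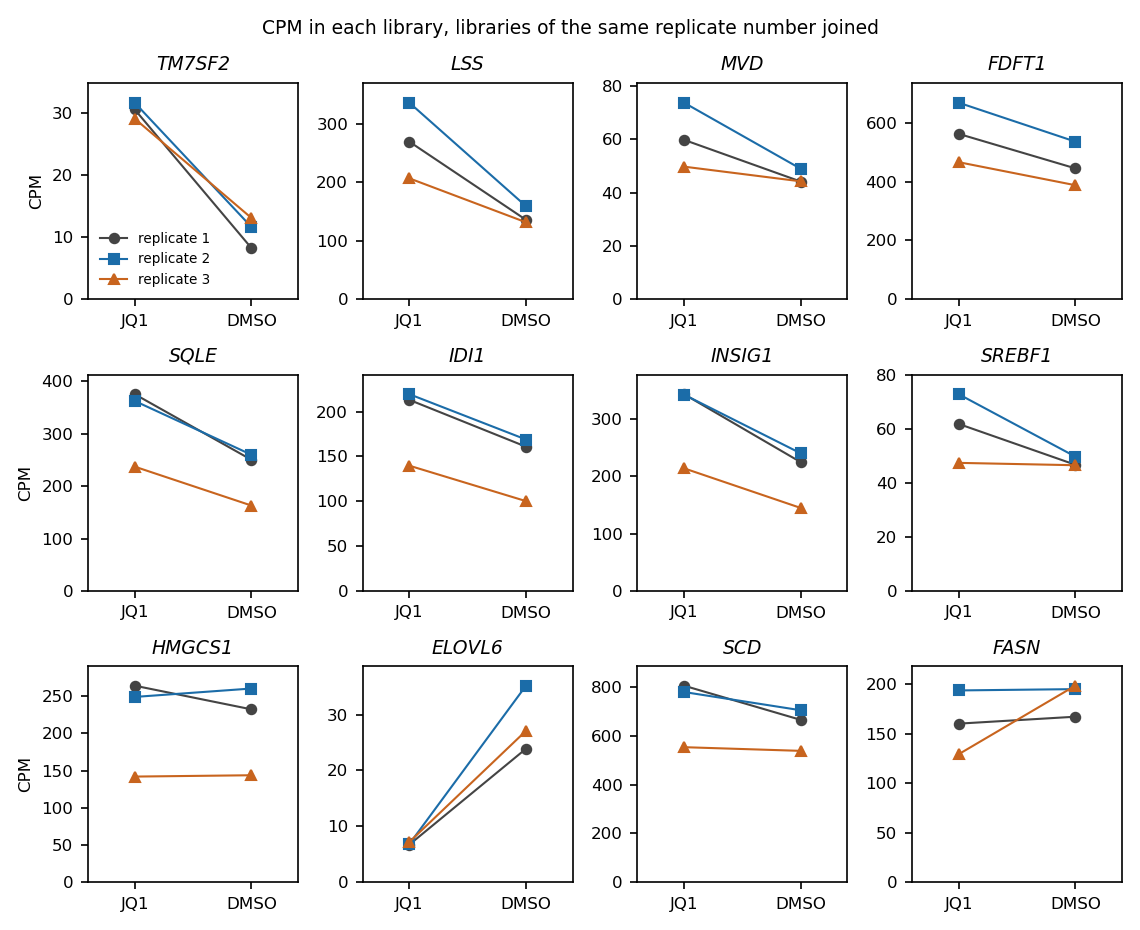
CPM (y axis, linear from 0) in JQ1 and DMSO libraries (x axis) for 12 members, with libraries of the same replicate number joined. Replicate 3 runs below replicates 1 and 2 for SQLE, IDI1, INSIG1 and HMGCS1 in both groups, while JQ1 is higher within each pair of SQLE, IDI1 and INSIG1, by log2 ratios of 0.48 to 0.58, 0.38 to 0.48 and 0.51 to 0.61.

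In fatty acid synthesis 8 of 9 enzymes were tested, and 0 rose and 1, ELOVL6, fell, by group alone and with the block. Of all tested genes 15.9% rose and 20.6% fell by group alone, and 27.3% and 29.6% with the block. The median log2 change was -0.02. ELOVL6, which lengthens palmitate to stearate, had the largest change of the 32 tested members. ELOVL6 had 6.75, 6.85 and 7.22 CPM in JQ1 replicates 1, 2 and 3, against 23.9, 35.2 and 27.1 CPM in DMSO replicates 1, 2 and 3. The JQ1 libraries lay close together and far below the lowest DMSO library. The fall was 4.15-fold (log2 change -2.05 ± 0.16, edgeR adjusted p = 1.6e-05) and rested on 167, 146 and 112 reads in the JQ1 libraries and 485, 895 and 715 reads in the DMSO libraries, by replicate number. Leaving out any 1 library gave log2 changes from -2.16 to -1.87. ELOVL6 lies on chromosome 4 (110045846 to 110199199, minus strand, ENSG00000170522.9).

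SCD, the desaturase that makes oleate, had the highest level per kilobase of exon of the members, with 133 ± 25.8 CPM per kb in JQ1 libraries and 118 ± 16.2 CPM per kb in DMSO libraries (SD, n = 3 each). SCD had 804, 778 and 552 CPM in JQ1 replicates 1, 2 and 3, against 664, 703 and 537 CPM in DMSO replicates 1, 2 and 3. The groups overlapped, and the SCD change was 0.16 ± 0.16 (edgeR adjusted p = 0.45, and 0.059 with the block). FASN is the fatty acid synthase. FASN had 160.3, 194 and 129 CPM in JQ1 replicates 1, 2 and 3, against 167, 195 and 199 CPM in DMSO replicates 1, 2 and 3. The first 2 pairs were nearly level and the third had a log2 ratio of -0.62. The FASN change of -0.21 ± 0.14 was not called (edgeR adjusted p = 0.26, and 0.16 with the block), and was called lower without JQ1 replicate 2 (-0.37, edgeR adjusted p = 0.048). With the block FASN was also called lower without pair 1 (-0.31, edgeR adjusted p = 4.9e-04) or pair 2 (-0.34, edgeR adjusted p = 5.0e-04). Without pair 3 the block gave -0.03 for FASN and no call (edgeR adjusted p = 0.75).

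ACACA, the carboxylase that makes malonyl-CoA, had a log2 change of -0.15 ± 0.09 with an edgeR adjusted p of 0.21. ACLY, which makes cytosolic acetyl-CoA from citrate, averaged 304 ± 18.4 CPM in JQ1 libraries and 306 ± 1.71 CPM in DMSO libraries (SD, n = 3 each). The desaturases FADS1 and FADS2 and the elongase ELOVL5 act on polyunsaturated fatty acids. Their log2 changes were 0.00 ± 0.15, -0.03 ± 0.11 and -0.01 ± 0.11, with 95% intervals from -0.33 to 0.34 for FADS1, -0.28 to 0.22 for FADS2 and -0.26 to 0.24 for ELOVL5. Per kilobase ELOVL5 averaged 96.6 ± 2.83 CPM per kb in JQ1 libraries and 97.5 ± 12.4 CPM per kb in DMSO libraries (SD, n = 3 each). ELOVL6 was the lowest of the tested members in JQ1 on that scale, with 0.951 ± 0.0339 CPM per kb in JQ1 libraries and 3.93 ± 0.796 CPM per kb in DMSO libraries (SD, n = 3 each).

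The sterol genes also varied with replicate number. Replicate 3 was the lowest library of its group, in JQ1 and in DMSO alike, for 18 of 32 members and 11 of 17 sterol enzymes, where 19.1% of all tested genes had this order, a count made after the values were seen. Over the sterol enzymes the median log2 ratio of replicate 3 to the mean of replicates 1 and 2 was -0.46 in JQ1 and -0.30 in DMSO. It was -0.14 in JQ1 and -0.07 in DMSO over the fatty acid enzymes, and -0.01 and 0.00 over all tested genes. For HMGCS1 the ratio was -0.85 in JQ1 and -0.78 in DMSO, and for INSIG1 it was -0.68 in JQ1 and -0.68 in DMSO. What a replicate number marks is not in the labels.

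Within pairs the sterol enzymes had median log2 ratios of 0.25, 0.06 and 0.14 for replicates 1, 2 and 3, and 13, 13 and 10 of 17 were higher in JQ1. Of the 13975 tested genes 6968, 6903 and 6989 were higher in JQ1 in these pairs. The fatty acid enzymes had median ratios of -0.02, 0.01 and -0.21. In every pair alike JQ1 was higher for 10 and lower for 3 of 17 sterol enzymes, where 35.7% and 36.7% of all tested genes did so. By group alone 5 sterol enzymes in place of 3 were called higher without JQ1 replicate 3, where 1718 genes in place of 2227 were called higher across the table. With both replicate 3 libraries left out, a choice made after the values were seen, 6 were called higher, namely MVK, MVD, IDI1, SQLE, LSS and TM7SF2, and 1423 genes across the table.

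**Figure D3:**
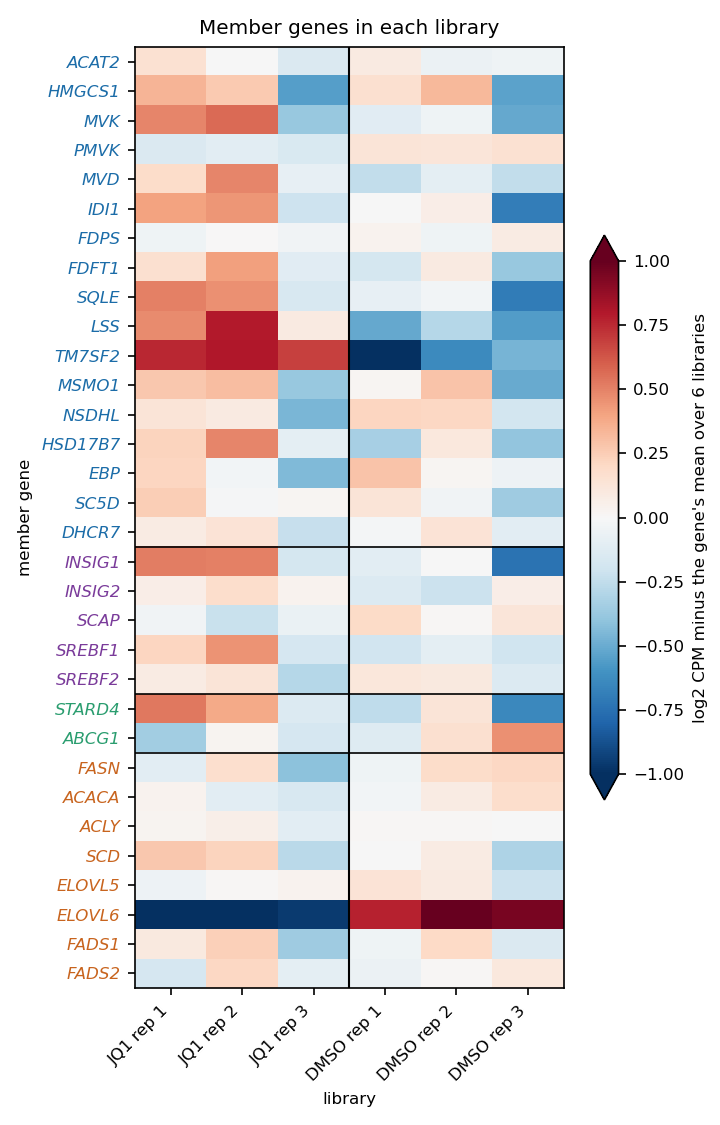
Log2 CPM of each tested member minus its mean over the 6 libraries (colour, cut at -1 and 1), members down the page by arm and libraries across. TM7SF2 and ELOVL6 split by treatment, while HMGCS1, IDI1, MSMO1 and INSIG1 are lowest in replicate 3 of both groups.

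The 3 untested members had next to no sense reads. CYP51A1, the lanosterol demethylase, had 0 in each library. ACSS2, an acetyl-CoA synthetase, had 0 in each JQ1 library, against 1, 1 and 0 in DMSO replicates 1, 2 and 3. The sterol exporter ABCA1 had 1, 0 and 2 reads in JQ1 replicates 1, 2 and 3, against 2, 0 and 4 reads in DMSO replicates 1, 2 and 3. A count of 0 allows up to 3 reads, or 0.114 to 0.193 CPM depending on the library, for counting error only. CYP51A1 shares 2844 of its 3584 exonic bases with another gene on the same strand in GENCODE release 29, whose version of CYP51A1 differs from that of the files, and the part of this overlap in its count was not tested. None of the 3 is reported as silent.

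Other genes of sterol and fatty acid metabolism, are given from 7 lists, with changes again on the log2 scale. Their counts stand beside 15.9% higher and 20.6% lower of all tested genes, and nothing particular to a list is read from them. Of 10 tested genes of SREBP processing and turnover 2 were higher and 2 lower. The ubiquitin ligase RNF145 fell by 0.65 ± 0.13 (edgeR adjusted p = 0.0028). UFD1, a cofactor in the extraction of proteins from the endoplasmic reticulum, rose by 0.59 ± 0.12 (edgeR adjusted p = 0.0038).

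Of 6 tested genes among the LXRs, their partners and their targets 0 rose and 1 fell. This was RXRA, a partner receptor of the LXRs. RXRA averaged 2.09 ± 0.560 CPM in JQ1 libraries and 12.0 ± 3.69 CPM in DMSO libraries (SD, n = 3 each) and changed by -2.50 ± 0.28 (edgeR adjusted p = 1.5e-04). RXRB, another partner in this list, averaged 47.8 ± 1.43 CPM in JQ1 libraries and 47.7 ± 3.26 CPM in DMSO libraries (SD, n = 3 each). RXRB was not called (edgeR adjusted p = 0.99). The LXR target LPCAT3 had 0.28 ± 0.14 (edgeR adjusted p = 0.14). Of 10 genes of sterol uptake and traffic 1 was higher and 3 lower. NPC1, which exports cholesterol from lysosomes, rose by 0.66 ± 0.10 (edgeR adjusted p = 6.8e-04), while the sterol transporters GRAMD1B (-0.61 ± 0.16) and GRAMD1A (-0.42 ± 0.13) and the lipoprotein receptor SCARB1 (-0.55 ± 0.16) fell.

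Of 11 genes of the isoprenoid branch 1 was higher and 4 lower. GGPS1, which makes geranylgeranyl diphosphate, rose by 0.39 ± 0.11. NUS1 of dolichol synthesis (-0.47 ± 0.11), RABGGTA, a subunit of the prenyltransferase of RAB proteins (-0.61 ± 0.15), and PDSS1 (-0.36 ± 0.12) and PDSS2 (-0.50 ± 0.13) of the ubiquinone side chain fell. Of 5 tested genes in the list of sterol reductase, esterification and oxysterol genes 0 rose and 1 fell. The gene that fell was ACAT1 (-0.42 ± 0.11), a mitochondrial thiolase that was in the list but is none of these by function. LBR, a sterol reductase of the nuclear envelope, had 0.13 ± 0.11 (edgeR adjusted p = 0.41).

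Of 13 tested genes of fatty acid elongation and activation 2 were higher and 3 lower. ACSL5, which joins fatty acids to coenzyme A, averaged 5.12 ± 1.52 CPM in JQ1 libraries and 57.1 ± 10.2 CPM in DMSO libraries (SD, n = 3 each) and changed by -3.45 ± 0.21 (edgeR adjusted p = 9.7e-06). Its relative ACSL6 fell by 2.96 ± 0.43 at low levels, averaging 0.278 ± 0.0885 CPM in JQ1 libraries and 2.18 ± 0.976 CPM in DMSO libraries (SD, n = 3 each), whereas ACSL3 rose by 0.59 ± 0.14. Of the enzymes of the elongation cycle TECR rose by 0.33 ± 0.10 and HSD17B12 fell by 0.37 ± 0.10. Of 7 tested other lipogenic genes 4 were higher and 0 lower. They were AACS (0.69 ± 0.13, edgeR adjusted p = 0.0026), which activates acetoacetate for lipid synthesis, the sugar-sensing factor MLXIP (0.36 ± 0.10), the phosphatidate phosphatase LPIN1 (0.29 ± 0.09) and the triglyceride enzyme DGAT1 (0.27 ± 0.09). In each list 2 genes were to be named by smallest p, and the further genes named here were chosen after their values were seen.

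**Figure D4:**
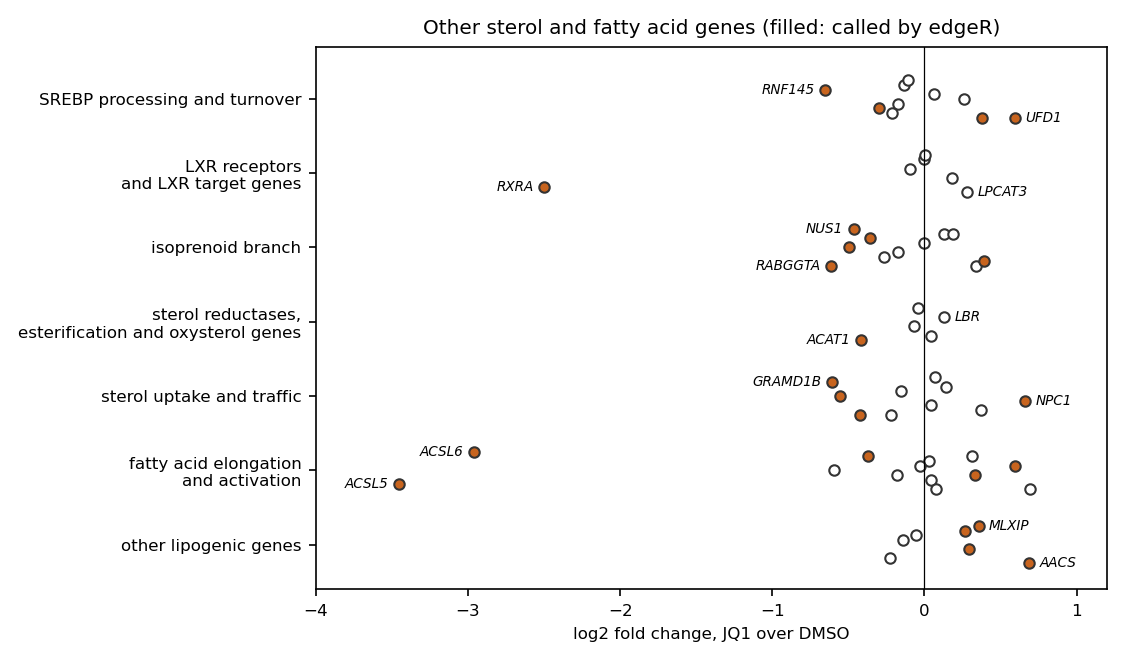
Log2 fold change of JQ1 over DMSO (x axis, log2 units) for tested genes of the 7 other lists (y axis, points spread vertically for sight), filled where called; the 2 genes with the smallest p in each list are named. ACSL5 (-3.45), ACSL6 (-2.96) and RXRA (-2.50) stand apart on the low side, and AACS (0.69) and NPC1 (0.66) are on the high side.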

How the data were processed

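The authors deposited raw counts per gene for each library in 3 columns (unstranded, forward and reverse). GRCh38 is the build named in the submitters' processing notes, and per the labels' protocols a stranded total RNA kit made the libraries. Aligner, version and annotation release: not given in the sources used here. The layout is that of STAR gene counts, which hold uniquely mapped reads assigned to 1 gene. The reverse-strand column was used, with 20.9 to 22.6 times as many gene counts as the forward one. The read classes at the top of each file, left out of totals, were unmapped (1.48% to 1.99% of reads), multimapping (14.1% to 15.7%), in no gene (18.8% to 26.1%) and ambiguous (3.38% to 3.88%). Of 58096 identifiers 57492 matched GENCODE release 29 without their version, and positions are printed where the version matched too.

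Low counts were filtered with filterByExpr (minimum count 10, minimum total 15) and libraries scaled with TMM factors of 0.965 to 1.06. The test was glmQLFTest after a robust glmQLFit by group in edgeR 4.0.16 (R 4.3.3). An SE was taken as the absolute log2 change over the root of F. CPM and CPM per kb of exon were computed from the counts. The code was tested on simulated data.

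Replicate numbers are shared between the groups. Across genes, deviations from group means correlated by 0.33, 0.43 and 0.37 between libraries numbered 1, 2 and 3, so same-numbered libraries were treated as pairs in an alternative with the number as a block. This pairing comes from the data. The biological coefficient of variation was 0.126 by group and 0.0595 with the block. Libraries of a group differed beyond sampling noise (chi-square 15.4 to 31.9 per degree of freedom).

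The members and lists were chosen with earlier results of these data known. All members are named, with 2 genes of each other list by smallest p, and some genes of these lists are not reported here. Alternatives were DESeq2 1.42.0, limma-voom (limma 3.58.1), other scalings and filters, unstranded counts, omission of mitochondrial and small RNA genes, the block, and each library left out in turn. Promoter sequences are from RefSeq (GRCh38.p14).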

Additional observations from a re-analysis of the deposited data

How the results depend on the processing

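ELOVL6, TM7SF2 and LSS kept their direction and their call in each of the 16 alternatives listed in the methods, with log2 changes from -2.16 to -1.87, 1.30 to 1.61 and 0.74 to 1.09. MVD stayed higher in each and was called in 11. The genes called higher across the table were 2227 by group alone, 3813 with the replicate block, 3392 and 3434 with the block and without pair 1 or pair 3, and 1423 without both replicate 3 libraries. Sterol enzymes called higher, 3 by group alone, were 6 with no filter on low counts, 8 with the block, 7, 9 and 8 with the block and without pair 1, 2 or 3, and 6 without both replicate 3 libraries. Leaving out 1 library gave 2 to 5. Sterol enzymes called lower, 0 by group alone, were 1 with scaling by library size alone, 2 with the block, and 1 with the block and without pair 1 or pair 2. Fatty acid enzymes called lower, 1 by group alone, were 3 and 2 with the block and without pair 1 or pair 2, and 1 to 2 with 1 library left out. With the block and without pair 3, 1 fatty acid enzyme was called higher. The sterol median of 0.16 ran from 0.044 (without DMSO replicate 3) to 0.33 (without DMSO replicate 2) with 1 library left out. The fits without a pair or without both replicate 3 libraries were chosen after seeing the data. Of the members' changes under the listed alternatives 477 kept their side of the threshold, 30 passed it anew and 5, all of MVD, no longer passed. The cause was not tested. CYP51A1, ACSS2 and ABCA1 had too few sense reads to be tested, and why was not tested.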

Other observations

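Fatty acid breakdown, in a list of 21 genes written after other results had been seen, had 3 genes called higher and 3 lower of 17 tested, shares near those of all tested genes (15.9% higher and 20.6% lower). The trifunctional protein subunit HADHB averaged 80.4 ± 2.76 CPM in JQ1 libraries and 61.5 ± 0.586 CPM in DMSO libraries (SD, n = 3 each) and changed by 0.39 ± 0.08 (edgeR adjusted p = 0.0033), and ETFB and CPT2 rose by 0.65 ± 0.14 and 0.48 ± 0.15. CPT1A, which commits fatty acids to the mitochondrion, averaged 118 ± 12.7 CPM in JQ1 libraries and 162 ± 10.9 CPM in DMSO libraries (SD, n = 3 each) and changed by -0.45 ± 0.10 (edgeR adjusted p = 0.0061), and DECR1 and ECI2, used for unsaturated fatty acids, fell by 0.45 ± 0.09 and 0.34 ± 0.11.

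In a list of 21 phospholipid synthesis genes written at the same time, 18 were tested, 2 were higher and 6 lower, beside the same 15.9% higher and 20.6% lower of all tested genes. PEMT, which methylates phosphatidylethanolamine, averaged 3.78 ± 0.547 CPM in JQ1 libraries and 12.8 ± 1.41 CPM in DMSO libraries (SD, n = 3 each) and changed by -1.76 ± 0.17 (edgeR adjusted p = 5.4e-05). The acyltransferases AGPAT2, AGPAT3 and AGPAT5 fell by 1.12 ± 0.15, 0.77 ± 0.08 and 0.38 ± 0.09, CRLS1 of cardiolipin synthesis by 0.60 ± 0.09 and PTDSS2 of phosphatidylserine synthesis by 0.62 ± 0.13. PGS1 and PCYT2 rose by 0.42 ± 0.08 and 0.57 ± 0.13.

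On the strand opposite to SREBF1, where exons of RAI1 overlap its own by 556 bases in GENCODE release 29, the JQ1 libraries held 39, 28 and 21 reads and the DMSO libraries 39, 57 and 65, by replicate number. Their log2 change was -0.70 ± 0.24 (edgeR adjusted p = 0.044), where 17.8% of 7018 genes tested on the opposite strand were called. RAI1 itself fell by 0.52 ± 0.12 (edgeR adjusted p = 0.0068). Opposite-strand reads of ELOVL5 numbered 15, 30 and 17 in the JQ1 libraries and 49, 54 and 32 in the DMSO libraries (log2 change -0.96 ± 0.33, edgeR adjusted p = 0.049).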
